A study of Enallax costatus with 10 samples.

Results

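RNA was measured by sequencing in cultures of Enallax costatus, a desert green alga (strain CCAP 276-31), as drops of culture dried and were rewetted. The genes described here are 19 assembly genes, of 32478 in all, chosen on an RNA level scaled across libraries. This scaled level stayed within 2-fold over all stages of drying. After rewetting it was at most 20% of its lowest drying value. Not every scale showed the flat course through drying, as given below. All drops of 40 µL came from cultures grown for 6 weeks. The Hydrated stage is the drop at 0 h. At 2.5 h the drops had lost 25% of their volume (Early desiccation), and at 7.5 h 60% (Late desiccation). Drops of the Dry stage were collected at about 24 h, having stayed 11 h in the chamber after they had flattened. Rehydrated drops had been wet again for 1 h. Each of these 5 stages had 2 libraries (n = 2 throughout). Whether the libraries of a stage are separate cultures is not in the labels, so their spread may be technical.

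Desiccation-tolerant green algae let their metabolism come to rest as water leaves and take it up again when water returns. The level of a transcript is the balance between its synthesis and its decay, and both can differ between a drying, a dry and a rewetted cell. The deposited tables do not pair the assembly identifiers with gene names, so no function can be given for these genes and markers of the alga could not be checked. An assembly gene can also be a fragment of a gene or a near-identical copy of another.

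The members were chosen from the measured values of all stages, on the second deposited table, which is called the scaled level here: expression per length, scaled across libraries by a TMM factor (a factor that aligns the bulk of the genes between libraries). Of 32478 genes, 5467 had 60 or more counts in both Hydrated libraries. Of these 5467 genes, 1222 had stage means in Hydrated, Early, Late and Dry that differed by less than 2-fold and are called stable genes. Of the 1222 stable genes, 19 (1.55%) had both Rehydrated values at or under 20% of the lowest of the 8 drying values, counting Hydrated with the drying stages. The stage patterns that follow are therefore descriptions of what the choice fixed, and they carry no test. Just inside the limit, the 2 members with the highest remainder had 19.2% and 18.9% of their lowest drying value, and the nearest stable genes outside had 20.2% and 20.5%. The widest stage spreads inside were 1.90-fold and 1.89-fold, and the nearest outside, among genes lost in the same way, were 2.05-fold and 2.13-fold. Among all 5467 genes, 75 were lost in this way whatever their drying spread, with every drying value above 0. The smallest Hydrated counts inside were 69.6 and 71.8, and a further 76 genes met the level criteria with fewer than 60 counts, the nearest at 51 and 49.

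Total expected counts, rounded per gene, lay between 1974791 and 3867192 per library, with the Rehydrated libraries at 1974791 and 2031426. Rehydrated replicate 2 stood apart: it had 319 genes with 100 or more counts, against 1343 in Rehydrated replicate 1 and 2043 to 4728 in the other libraries. The libraries also split across stages. Hydrated replicate 2, Late replicate 2 and both Rehydrated libraries (set B) shared 147 genes that had 3 or more counts in every one of them and no count in the other 6 libraries (set A), and the labels give no batch for this. The members' fold changes without these libraries are given beside the calls.

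From Hydrated to Dry the 19 genes kept their scaled level, and an hour after rewetting little of their RNA was counted. As a median over the 19, the stage mean was 116% of Hydrated in Early, 81.8% in Late, 99.0% in Dry and 3.87% in Rehydrated. Single members ranged from 53.0% to 161% in Early, from 54.8% to 106% in Late, from 55.2% to 161% in Dry and from 0% to 12.2% in Rehydrated. Over the 4 drying stages the median member varied 1.72-fold between its highest and lowest stage mean, and 2.17-fold between its highest and lowest single library, up to 3.21-fold. In bulk samples, fewer cells holding a transcript and less of it per cell cannot be told apart.

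**Figure D1:**
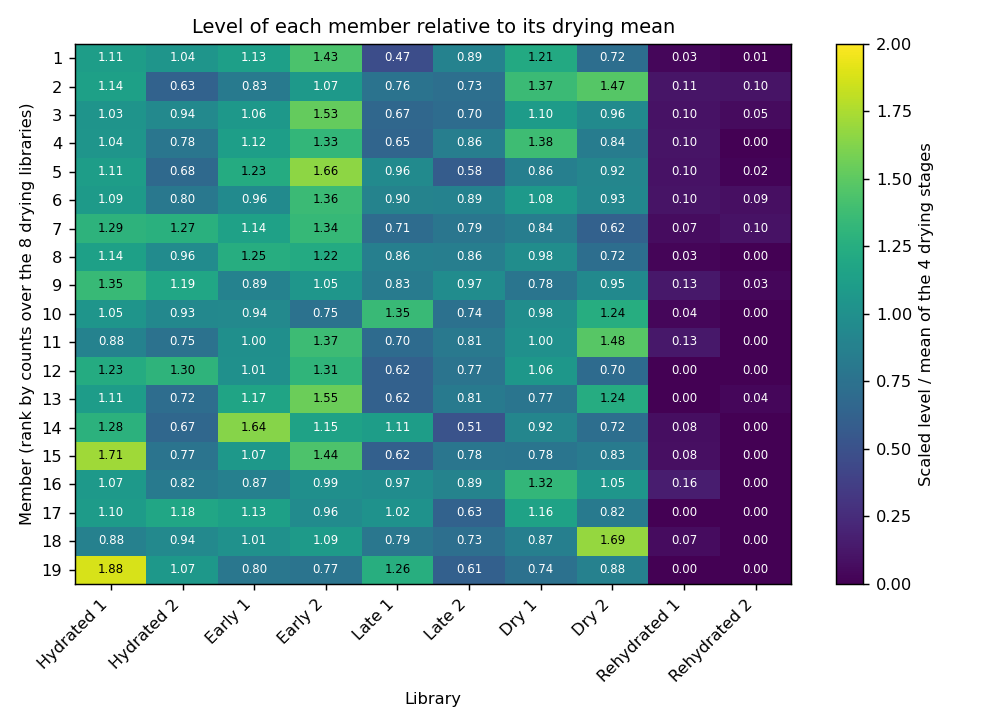
Scaled level of each of the 19 members (rows, ranked by their counts over the 8 drying libraries) in each of the 10 libraries (columns), divided by the member's mean over the 4 drying stages; the number in a cell is that ratio. The 8 columns from Hydrated to Dry lie on both sides of 1, and in the 2 Rehydrated columns the highest cell is 15.8% of the drying mean.

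The 2 members with the most counts are named, and the files give neither of them a function. TRINITY_DN157071_c0_g2 had scaled levels of 89.4 and 83.7 in Hydrated, 90.8 and 115 in Early, 37.8 and 71.5 in Late, 97.5 and 58.0 in Dry, and 2.75 and 0.888 in Rehydrated (replicates 1 and 2). Its Late and Dry libraries spread widely and overlapped with each other, whereas both Rehydrated libraries lay far under the lowest of the other 8. The stage means were 86.6 ± 4.05 in Hydrated, 77.8 ± 27.9 in Dry and 1.82 ± 1.32 in Rehydrated (SD, n = 2), so the mean over the drying stages, 80.5, was 44.2-fold the Rehydrated mean. Behind these values stood 1349 and 1125 counts in Hydrated, 501 and 390 in Dry, and 14 and 3 in Rehydrated.

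TRINITY_DN209204_c10_g1 had scaled levels of 24.1 and 13.4 in Hydrated, 17.6 and 22.8 in Early, 16.2 and 15.6 in Late, 29.0 and 31.3 in Dry, and 2.36 and 2.19 in Rehydrated. Both Dry libraries were the highest of all, and the Rehydrated libraries were nearly equal. The stage mean went from 30.1 ± 1.64 in Dry to 2.28 ± 0.120 in Rehydrated (SD, n = 2), and the drying mean was 9.32-fold the Rehydrated mean. Of the 10 members with more than 3 counts summed over the Rehydrated libraries, this was the smallest fold and that of TRINITY_DN157071_c0_g2 the largest, with a median of 12.8-fold.

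The drying means of the 19 ran from 4.53 to 80.5 with a median of 8.22, and 11 of the 19 lay under 10. A total of 3 members had no count in either Rehydrated library. The most counted of these had scaled levels of 7.75 and 8.18 in Hydrated, 6.32 and 8.24 in Early, 3.89 and 4.85 in Late, 6.66 and 4.38 in Dry, and 0 in both Rehydrated libraries. Late was its lowest drying stage, and no drying library came near 0. Taken against 3 counts summed over the Rehydrated stage, the drying means of these 3 members were at least 14.0-fold to at least 22.6-fold higher. With these 3 members at their bounds, the median over the 19 was at least 17.0-fold. A further 6 members had 1 to 3 counts summed over both Rehydrated libraries, and no fold is given for them singly.

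Within the limits of the rule, the drying stages differed in order. Early was the highest stage mean in 9 of 19 members (33.9% of the 1203 stable genes that were not lost), Hydrated in 5 (32.2%), Dry in 5 (22.8%) and Late in 0 (11.1%). Late was the lowest stage mean in 13 members (68.4%), against 38.7% of those 1203 genes. Both Early libraries lay above both Hydrated libraries in 8 members, where 21.8% of all stable genes did so, and below them in 2, where 23.6% did. Both Late libraries lay below both Hydrated libraries in 8 members (36.6% of stable genes) and above them in 0 (11.2%). For Dry, 2 members lay above (17.9%) and 4 below (30.6%). These shares describe 19 genes in the same libraries and were not tested.

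The flat course through drying held on the scaled level and not on every scale. The TMM factors implied by the column sums of the second table were 0.383 for Rehydrated replicate 2 and 0.589 for Late replicate 1, and from 0.742 to 1.87 for the other libraries. With each library of that table set to a sum of 1000000 instead, the members' median level was 112% of Hydrated in Early, 32.4% in Late, 71.7% in Dry and 1.73% in Rehydrated, and 0 of the 19 kept all drying stages within 2-fold. As a share of total counts, the medians were 110%, 65.6%, 42.4% and 2.28%, and 3 of 19 stayed within 2-fold. On CPM (counts per 1000000 counts) with TMM scaling, 18 of 19 did. The low Rehydrated level was also read on these scales, and 19, 17 and 16 of the 19 were at or under 20% of the lowest drying value on total counts, on the table set to 1000000 and on TMM-scaled CPM. On TMM-scaled CPM, TRINITY_DN209204_c10_g1 was over that limit. It had 11.4 and 16.4 in Rehydrated and 55.7 in Hydrated replicate 2, its lowest drying library. The shares of all counts that the 19 genes held were 0.143% and 0.132% in Hydrated, 0.146% and 0.159% in Early, 0.0731% and 0.0940% in Late, 0.0685% and 0.0513% in Dry, and 0.00526% and 0.00153% in Rehydrated. By this measure the members held less of the library in Late and Dry than before drying, and least in Rehydrated, where both libraries lay under both Dry libraries.

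**Figure D2:**
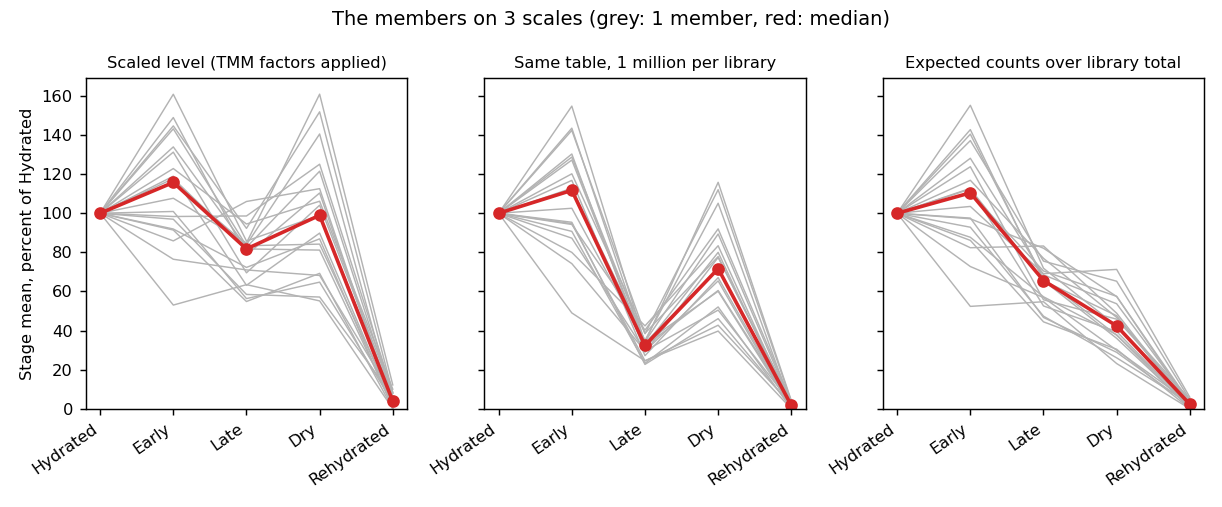
Stage mean of each member in percent of its Hydrated mean, by stage, on the scaled level, on the same table set to 1000000 per library and on expected counts over the library total (grey lines are the 19 members, red points their median). The median in Dry is 99.0%, 71.7% and 42.4% of Hydrated on these scales, and in Rehydrated 3.87%, 1.73% and 2.28%.

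The Rehydrated libraries did not weigh equally in the choice. In Rehydrated replicate 1, 41 of the 1222 stable genes (3.36%) were at or under 20% of their lowest drying value, and in replicate 2, 332 (27.2%) were. The rule applied without replicate 2 or without replicate 1 thus gave 41 or 332 genes in place of 19, and without Hydrated replicate 2 it gave 32. Stable genes that were not lost had a median of 68.9% of their drying mean in Rehydrated replicate 1 and 27.97% in replicate 2, so the background itself was low in replicate 2. The members' medians were 7.53% and 0%. Of the 41 genes low in replicate 1, 22 were over the limit in replicate 2, 8 of these with 10 or more counts there. Of the 1222 stable genes, 492 kept both Rehydrated values over 50% of the lowest drying value, and 135 had their higher Rehydrated value between 20% and 50% of it.

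**Figure D3:**
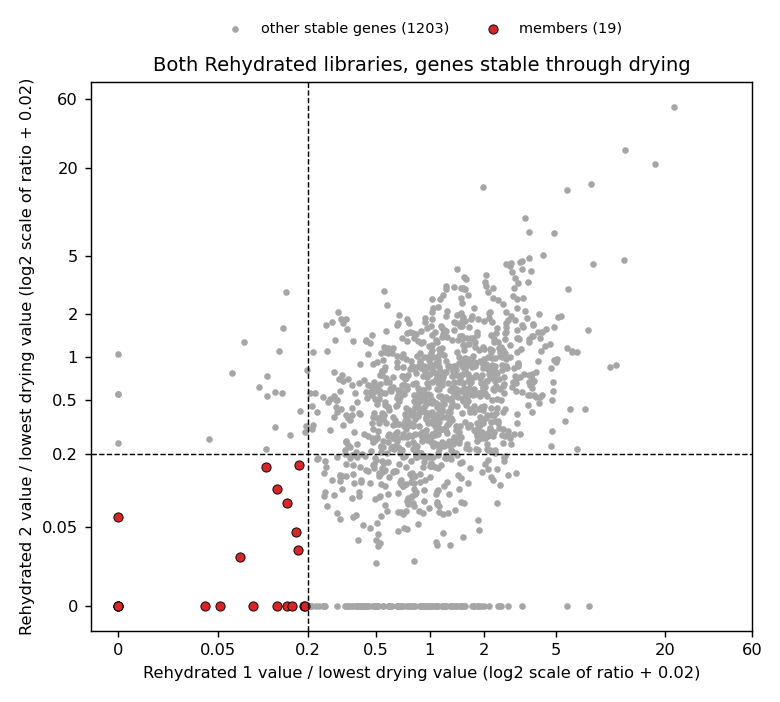
Rehydrated value divided by the lowest of the 8 drying values, for replicate 1 (horizontal) and replicate 2 (vertical), on a log2 scale of the ratio plus 0.02, for the 19 members (red) and the other 1203 stable genes (grey); dashed lines mark 20%. Few genes lie left of the vertical line (41), many lie under the horizontal line (332), and the 19 members are the genes in both.

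The Rehydrated counts can be set beside the counts that an unchanged level would give. At the drying mean, and with what a count is worth in each library, the members would have had 25.2 to 410 counts in Rehydrated replicate 1 (median 46.8) and 16.7 to 271 in replicate 2 (median 31.0). The observed counts were 0 to 18 in replicate 1 (median 4) and 0 to 11 in replicate 2 (median 0). Summed over the 19 genes, replicate 1 had 104 counts, 6.78% of the 1530 that the drying mean would give, and replicate 2 had 31 counts, 3.06% of 1013. In replicate 1, 4 members had no count, and 0.333% of the other stable genes did. In replicate 2, 11 members had no count, and 10.2% of the other stable genes did. For 4 members, 3 counts in replicate 2 would already have passed 20% of the lowest drying value, so the limit was at the floor of that library for them; in replicate 1 this held for 0 members. These counts cover counting error only.

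**Figure D4:**
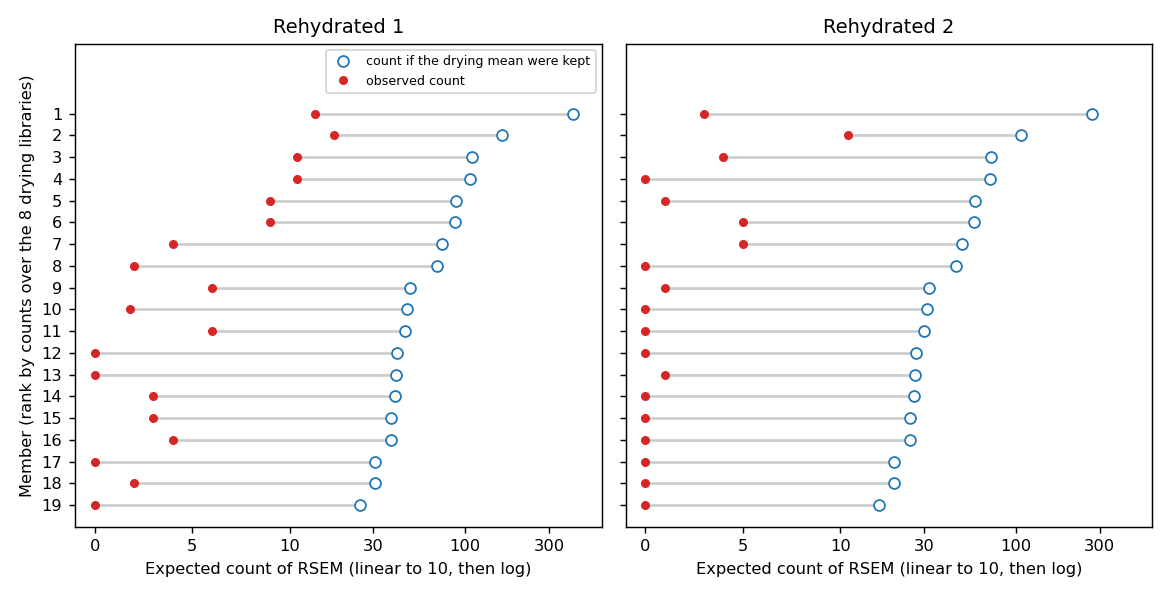
Observed counts of each member in both Rehydrated libraries (red points) and the count that its mean drying level would give in that library (open points), on an axis that is linear to 10 and logarithmic beyond. Every open point lies at 16.7 counts or above, and the highest observed count is 18.

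The rule required each drying library, those of set B included, to hold these transcripts at 5 or more times the Rehydrated level, so the next values are a description. The members' share of counts was 0.132% in Hydrated replicate 2 and 0.0940% in Late replicate 2, against 0.00526% and 0.00153% in the Rehydrated libraries of the same set. Hydrated replicate 2 was lower than replicate 1 in 16 of 19 members, with a median log2 ratio of -0.25, and in 68.9% of the other stable genes, with a median of -0.23. In Late, 10 of 19 members were lower in replicate 2, with a median log2 ratio of -0.01, as were 47.7% of the other stable genes, with a median of 0.03.

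In the edgeR quasi-likelihood fit over all libraries and 16190 genes, 19 of 19 members were called lower in Rehydrated than in Dry at an adjusted p under 0.05, where 11.0% of all genes were. Against Hydrated, 19 of 19 were called lower, where 3.55% of all genes were. The rule used these contrasts, so the counts follow from the choice and nothing is read from them. The median log2 fold change of the members was -4.05 against Dry and -3.96 against Hydrated, where the medians over all genes were 0.20 and -0.09. DESeq2 called 19 members lower in each contrast, where it called 12.2% of its genes lower against Dry and 6.69% against Hydrated.

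The number of members called differed between fits. Both Rehydrated libraries were in set B and both Dry libraries in set A, so within these stages the contrast cannot be told apart from the split. A term for the split rests on Hydrated and Late alone, and leaving out a library does not remove this. Against Dry, with the library split as a term, edgeR called 0 members (19 at an unadjusted p under 0.05) and 0.0185% of all genes lower, and the members' median log2 fold change was -3.87. With those stages fitted alone, 5 members and 1.98% of all genes were called lower, with a median of -3.52. Against Hydrated, the stages fitted alone gave 0 members (19 at an unadjusted p under 0.05) and 0% of all genes, with a median of -3.91. Fits that leave Hydrated with 1 library assume that it varies like the other stages. Of these, the fit without Hydrated replicate 1 called 4 members and 0.164% of all genes lower (median -3.62), and the fit without Hydrated replicate 2 called 18 members and 1.84% (median -4.10). Within set B, with 4 libraries over 3 stages, edgeR called 0 members (13 at an unadjusted p under 0.05) and 0% of all genes (median -3.60), and there the spread comes from the Rehydrated pair alone, so this count says nothing on stability.

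Without Rehydrated replicate 2, all 19 members were called lower in both contrasts, with medians of -3.78 against Dry and -3.62 against Hydrated (8.28% and 4.43% of all genes lower). Without Rehydrated replicate 1, all 19 were called too (17.6% and 12.3% of all genes). The medians of that fit were -9.08 and -9.05, where 11 members have no count in the replicate that remains, and such fitted values are no bounds. Against Dry, the fit without Hydrated replicate 2 called 19 members (median -4.16) and 8.60% of all genes. Without Late replicate 2, 19 were called in both contrasts, with medians of -4.16 and -4.10 (7.62% and 2.15% of all genes).

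Through drying, 0 of 19 members were called by edgeR against Hydrated in Dry, where 13.1% of all genes were called, and 0 had an unadjusted p under 0.05. The members' median log2 fold change was 0.21 in Dry, 0.26 in Early and -0.14 in Late, beside -0.50, -0.07 and -0.03 over all genes. DESeq2 called 1 member higher in Dry, where it called 14.5% of its genes higher. With total-count scaling in edgeR, all 19 members had negative log2 fold changes in Dry with a median of -1.26, and 2 were called lower, where 25.5% of genes were. That scaling moved the median of all genes from -0.50 to -1.96. In Early and Late, edgeR called 0 members and 0% of all genes against Hydrated, with 0 members at an unadjusted p under 0.05, and DESeq2 called 0 members. Over all 16190 genes, 1780 in Early and 1546 in Late had an unadjusted p under 0.05 in edgeR. DESeq2 called 376 of the 8550 genes that it tested in Early and 383 of 10439 in Late. A narrow spread through drying was part of the rule, so these counts are descriptions too.

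The members' length and level are set beside those of the other 1203 stable genes as descriptions, since the rule used the level and genes are not replicates. Their length, read from the counts per unit of scaled level and set to 1 for the median stable gene, had a median of 0.732 (quartiles 0.597 and 0.929), against 1.002 (0.749 and 1.41), and 4 of 19 were longer than 1. Their drying mean per length had a median of 8.22 (quartiles 6.28 and 13.6), against 5.79 (3.98 and 9.49). Length is computed from the counts and levels that the choice used, so both measures can follow from the choice. The summed count over the drying libraries was similar, with medians of 813 and 884.

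**Figure D5:**
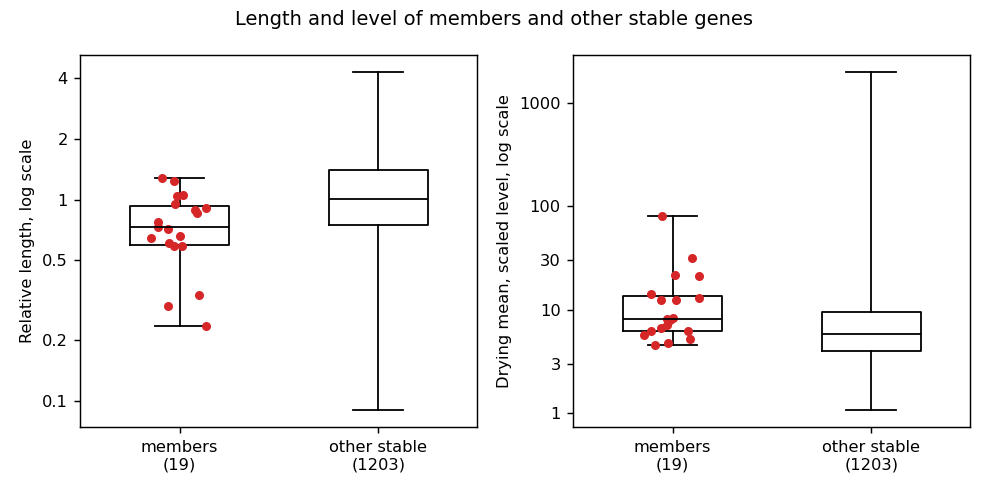
Length relative to the median stable gene (left) and mean scaled level over the 4 drying stages (right), both on log scales, for the 19 members (red points) and the other 1203 stable genes; boxes give quartiles and median, and whiskers the full range. The members' median length is 0.732 against 1.002, and their median level 8.22 against 5.79.

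Many members had relatives in the assembly. A component is a group of assembly genes that share sequence, read here from the first part of the identifier. Of the 19 members, 7 (36.8%) were alone in their component, against 66.2% of the other stable genes, and 11 (57.9%) had counts that were not whole in a drying library, against 35.2%, so part of their reads was divided among sequences. The 19 members came from 18 components, and 2 shared 1 component. The more counted of these 2 had scaled levels of 22.8 and 17.1 in Hydrated, 30.045 and 18.4 in Dry, and 2.24 and 0 in Rehydrated. The other had 9.11 and 5.91 in Hydrated, 6.37 and 10.2 in Dry, and 0 and 0.313 in Rehydrated. Their profiles may not be separate measurements, since both had counts that were not whole.

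The 12 members with relatives had 16 other genes in their components that were no members, and 2 of these had 60 or more counts in both Hydrated libraries. The more abundant of the 2 belongs to the component of TRINITY_DN157071_c0_g2. It had 2567 and 1565 counts in Hydrated, 2337 and 4390 in Early, 593 and 1089 in Late, 3276 and 2674 in Dry, and 172 and 48 in Rehydrated. Its stage means varied 6.46-fold over drying, so it was not stable, and its Rehydrated mean was 9.99% of its drying mean. The other went to 19.6% of its drying mean, with 28 counts in Rehydrated replicate 1 and 0 in replicate 2. On the measure of the rule, the higher Rehydrated values of these 2 relatives were 51.7% and 106% of their lowest drying values. Neither relative was thus within the 20% limit that the members met. Among all 5467 genes with 60 or more counts in both Hydrated libraries, 17.2% had a Rehydrated mean under 20% of the drying mean, and the median was 46.4%. The remaining 14 relatives had too few counts for a firm comparison, and they did not all fall. In the component of a member with 1.82 counts summed over Rehydrated, the relatives had 9.18, 11 and 8. These stood at 113%, 218% and 447% of the relatives' drying means. In other components, relatives with 68.7 and 188 counts over drying had 0 in Rehydrated. How reads were divided between relatives was not tested.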

How the data were processed

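Cultures, drying and library construction are as the labels give them; ribosomal RNA was depleted with a kit for Arabidopsis plus 105 custom oligonucleotides, per the labels' protocols. The submitters' processing notes list RSEM 1.2.28, Bowtie2 2.2, Trimmomatic 0.35, CASAVA 1.4 and DESeq2 without their roles, and do not name the assembly. In the authors' first deposited table, the values are expected counts, and 11.4% of them are not whole. The authors' other deposited table holds scores, called the scaled level. Dividing 1000000 by its column sums gives factors whose product is 0.999997, as for TPM divided by TMM factors, but no source used here states the formula. A column was assigned to the sample with its replicate number and time code (column names start with Scos, sample titles with Ecos).

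Expected counts were rounded and analysed with edgeR 4.0.16 in R 4.3.3: filterByExpr (minimum count 10, minimum total 15; all 19 members passed), TMM, and 1 quasi-likelihood fit of the 10 libraries with stage as the factor (5 residual degrees of freedom), with Benjamini-Hochberg adjustment over the 16190 genes of each contrast. DESeq2 1.42.0 and limma 3.58.1 were alternatives. Members, lists and tests were chosen with earlier results of these data known. The 2 named members are those with the largest summed counts over the drying libraries, from different components. Lengths are the median over drying libraries of count (5 or more) divided by scaled level, relative to the library's median stable gene. Floors are 3 counts summed over a stage, and cover counting error only, since reads were counted without molecular identifiers.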

Additional observations from a re-analysis of the deposited data

How the results depend on the processing

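The number of members followed the limits of the rule: 6 with drying stages within 1.5-fold and 39 within 3-fold, 61 with up to 33.3% left in Rehydrated and 8 with up to 10%, and 37 or 10 with a minimum of 30 or 120 counts. On the second table set to 1000000 per library, an alternative chosen after seeing the data, it was 4, with 0 of the 19 among them; on TMM-scaled CPM it was 21 (16 of the 19) and on total counts 16 (3 of the 19). Leaving out a library gave 14 to 332. For Rehydrated against Dry, 2704 genes were called (1787 lower; with upper-quartile scaling 1305 of 2664), 531 at an adjusted p under 0.01, 665 with total counts, 4 with the library split as a term and 540 with those stages alone (0 and 5 members in the latter fits); without a library the counts were 344 to 4934 genes and 14 to 19 members. For Rehydrated against Hydrated, 937 genes were called, 147 at an adjusted p under 0.01 (9 members), 1950 by DESeq2, 4097 with total counts, 1507 without a filter, 500 with the split, 0 by edgeR within set B and with those stages alone (0 members each; 441 and 1880 genes at an unadjusted p under 0.05), and 2407 or 2010 by limma on the second table plus 1 with or without the filter; without a library, 38 to 2978 genes and 4 to 19 members. For Dry against Hydrated, 2117 genes were called, 595 at an adjusted p under 0.01, 3177 by DESeq2 (1 member), 4425 with total counts (2 members), 1192 with the split, 3248 within set A, 4607 with those stages alone, 1129 by limma plus 1 without a filter, and 1131 or 281 by limma plus 0.1 with or without it; without a library, 365 to 4087 genes and 0 members. For Early against Hydrated, 0 genes became 376 by DESeq2, 2 with upper-quartile and 3 with RLE scaling, 67 without a filter, 13 with the replicate block, 13 with the split, 351 within set A, 579 with those stages alone, and 6 or 9 by limma plus 1; without a library, 0 to 222. For Late against Hydrated, 0 became 383, 3, 3, 49, 8, 17 and 521 in the same order up to set A, then 15 or 17 by limma plus 1 and 3 by limma plus 0.1; without a library, 0 to 233. The counts without a library include fits that leave a compared stage with 1 library, whose spread then comes from the other stages. The members' median log2 fold change in Rehydrated was negative in each fit, which follows from the rule and is no support. Replicate numbers were not treated as pairs in the main fit, and correlations cannot settle whether the libraries are paired. The correlation of replicate differences between stages was over 0.1 in 3 of 10 stage pairs (-0.05 to 0.36). These were the pairs among Hydrated, Late and Rehydrated, the stages with set B libraries. With the replicate block, 2915, 919 and 1973 genes were called for Rehydrated against Dry, Rehydrated against Hydrated and Dry against Hydrated, and the members' calls were the same in number. The causes were not tested.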
